A study of Homo sapiens with 4 samples.

Results

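The genes described here encode the VHL ubiquitin ligase and the enzymes that switch it on. They were 10 genes of the 58735 listed in the deposited expression table, matched by symbol in GENCODE release 44. Membership follows from the role of the encoded protein and has no threshold on a measured value, but the set was picked with earlier results of these data known. RNA-seq was carried out on 4 libraries from cells labelled NB4, an established human cell line from acute promyelocytic leukemia. The control group held 2 libraries labelled as given no treatment, and the GNE-987-treated group held 2 libraries from cells given 25 nM GNE-987 for 1 day. All 4 libraries shared the same cell line and no other agent is named in the labels.

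VHL ligases work as follows. VHL holds the substrate, elongin B (ELOB) and elongin C (ELOC) join it to the scaffold cullin-2 (CUL2), and the RING protein RBX1 on the far end of the cullin calls in a ubiquitin-loaded enzyme. The ligase becomes active when the small ubiquitin-like protein NEDD8 is attached to the cullin. NEDD8 is activated by a pair of subunits, NAE1 and UBA3, and handed over by the conjugating enzyme UBE2M, while CDC34 is an enzyme that extends ubiquitin chains on substrates of cullin ligases. In most cells VHL marks the hypoxia-inducible factors for degradation when oxygen is present. GNE-987 brings its target proteins to VHL, so these genes encode the machinery on which the compound relies.

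Some facts of the whole series bear on each value below. Few of the promyelocyte markers chosen here were present in the control libraries of the labelled cell line. Of these 9 markers, 2 reached 1 FPKM in both control libraries, whereas 10 of 10 erythroid markers did. MPO, which encodes myeloperoxidase, was close to 0 in the control libraries (0.0246 and 0 FPKM). CTSG was listed at 0 in all 4 libraries. Both lists moved with the treatment in the deposited values. Summed levels of the promyelocyte markers were 9.56 to 11.0 FPKM in control and 29.7 to 32.5 FPKM in GNE-987-treated libraries. Those of the erythroid markers were 430.3 to 464.1 against 740.3 to 856.3 FPKM. The sums were not rescaled, and the scalings to total reads and to GAPDH described below lower the treated values against control. The part of these markers in the results was not tested. The RNA is from whole cultures, where fewer cells of a type and less RNA per cell cannot be told apart. Depth, read from the steps of the FPKM values, was between 12432249 and 19487700 reads on genes, with the GNE-987-treated libraries the shallower pair. The deposited values were scaled to 1.18 and 1.15 times these totals in control but 0.672 and 0.682 times in GNE-987-treated libraries, and scaling to total reads shifted the median log2 fold change over the tested genes by -0.74. GAPDH was itself higher with GNE-987 (398.1 and 432.2 against 1501 and 1499 FPKM), and scaling to it shifted the median log2 fold change over the tested genes by -1.77. For this reason each direction of a member is given with the scalings under which it does not hold. The other genes' directions are those of the deposited values unless a scaling is named. Nothing in the labels says that the libraries came from separate cultures, so the P values measure only the spread between these libraries, which may be technical.

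The stretches just before the transcription starts of 5 of the genes are shown, chosen because their RNA levels moved furthest down (CUL2, NAE1, UBA3) or up (ELOB, NEDD8) in the deposited values. Each line is the 100 bases before the start in RefSeq on GRCh38.p14, read 5′ to 3′ on the gene's strand, which is the minus strand for all 5. Capitals mark a GC box (GGGCGG or CCGCCC) or an ETS core (CCGGAA or TTCCGG).
CUL2 (chr10:35090615-35090714): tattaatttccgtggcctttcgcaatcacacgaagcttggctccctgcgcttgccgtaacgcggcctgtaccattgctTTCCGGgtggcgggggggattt
NAE1 (chr16:66830977-66831076): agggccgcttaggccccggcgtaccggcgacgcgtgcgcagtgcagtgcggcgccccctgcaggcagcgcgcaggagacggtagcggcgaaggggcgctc
UBA3 (chr3:69080366-69080465): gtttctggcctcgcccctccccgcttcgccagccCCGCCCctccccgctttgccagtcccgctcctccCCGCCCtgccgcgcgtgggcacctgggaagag
ELOB (chr16:2777281-2777380): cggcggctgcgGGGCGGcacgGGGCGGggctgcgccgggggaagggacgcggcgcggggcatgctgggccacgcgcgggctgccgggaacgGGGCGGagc
NEDD8 (chr14:24232368-24232467): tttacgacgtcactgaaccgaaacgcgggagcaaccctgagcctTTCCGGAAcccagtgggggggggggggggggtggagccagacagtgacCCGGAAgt
The letters did not sort the genes by direction. GC boxes stood in UBA3, which fell, and in ELOB, which was higher in the deposited values. ETS cores stood in CUL2, which fell, and in NEDD8, which was higher in the deposited values. In windows of 300 bases around the start (250 before and 50 after), matched for 8 of the 10 genes, a GC box on either strand was found in 7 of 8, against 45.0% of the 35116 RefSeq windows. An ETS core was found in 2 of 8 (CUL2 and NEDD8), against 17.2%. The E-box CACGTG stood only in RBX1 among the 8 (7.26% of windows), the CCAAT box (CCAAT or ATTGG) in NAE1 and NEDD8 (34.6%) and the palindromic NRF1 consensus in 0 of 8 (1.24%). No motif overlapped another of the 5, but the ETS core of NEDD8 at 56 bases before the start overlaps its own reverse complement. CUL2 has 3 starts in RefSeq, and the first listed is shown. A gene was counted when any of its windows matched, whereas the percentages are shares of single windows and are not limited to tested genes. A match of letters is a description and not a measured binding site.

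Within the ligase, the RNAs of the substrate receptor and the scaffold fell, VHL to 0.337 and CUL2 to 0.185 of the control level. In the deposited values ELOB rose 3.29-fold and ELOC 2.04-fold, and both turned with scaling to GAPDH. RBX1 was 1.70-fold higher, under the fold threshold. In the NEDD8 pathway, both subunits of the activating enzyme fell, NAE1 to 0.220 and UBA3 to 0.254 of control, while NEDD8 rose 2.25-fold in the deposited values and turned with scaling to GAPDH. A gene was called when limma on log2(FPKM + 0.1), a scale that understates the change of low genes, gave an unadjusted P value below 0.05 and the fold change was over 2 or under 0.5. All 10 genes passed the filter on low values (a mean of at least 0.5 FPKM), and 4 of 10 were lower and 3 of 10 higher. The background was 24.9% lower and 33.6% higher among all 16668 tested genes, and 31.7% lower and 24.0% higher among 10996 protein-coding genes, so the members' counts were near the background. With adjusted P values the members' counts were the same, against 24.6% lower and 33.2% higher, and in limma's test for changes beyond 2-fold they were 4 lower and 1 higher, against 18.4% and 29.0%. The median log2 fold change of the 10 was -0.43, against 0.17 for all tested genes and -0.29 for protein-coding genes. The split of all calls depended on scaling: 42.5% of called genes were lower in the deposited values, 38.9% with median-ratio scaling, 56.4% with quantile normalization, 61.4% with scaling to total reads and 76.3% with scaling to GAPDH.

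**Figure D1:**
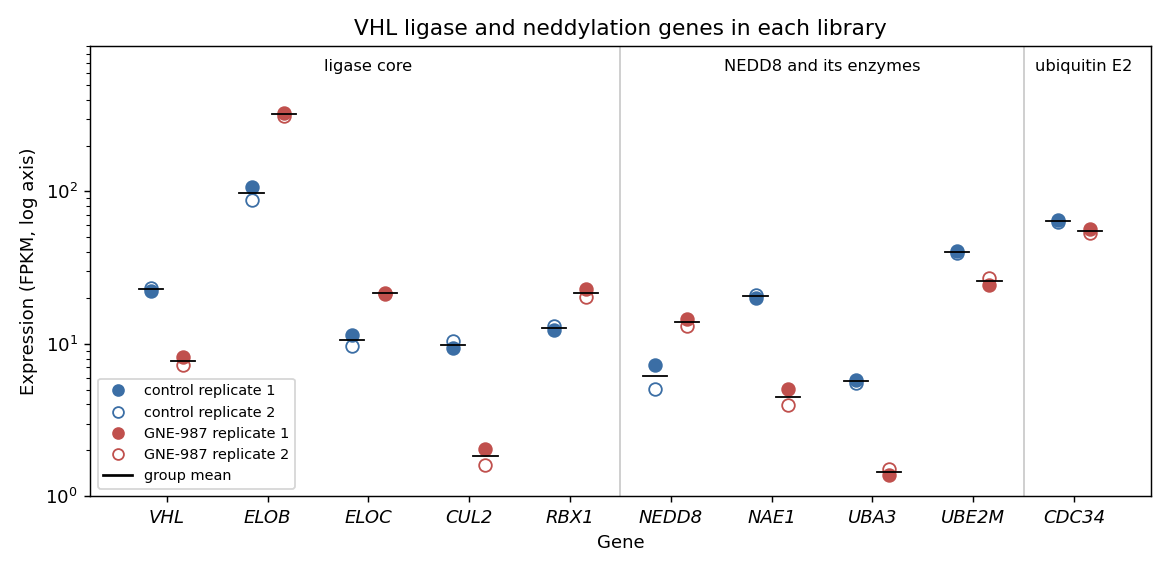
Expression of the 10 genes in FPKM on a log axis, with 1 point per library (blue, control; red, GNE-987; filled, replicate 1; open, replicate 2) and a line at each group mean (n = 2 libraries). The groups do not overlap for any of the 10 genes. CUL2, NAE1 and UBA3 show the widest drops, from between 5.54 and 21.0 FPKM to between 1.37 and 5.02 FPKM.

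VHL (ENSG00000134086), the substrate receptor that the compound binds, measured 22.4 and 23.3 FPKM in control and 8.15 and 7.23 FPKM after GNE-987. These values rest on 2169 and 2167 reads against 287 and 269 reads. Both treated libraries were thus well below both control libraries. The log2 fold change was -1.56 ± 0.0811 (SE; 95% interval -1.79 to -1.33; limma, P value 0.000389 after Benjamini-Hochberg adjustment over the tested genes). VHL was called lower in 16 of 16 alternative settings. A long noncoding RNA on the opposite strand shares 1173 exonic bases with VHL in GENCODE and was not analysed here.

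CUL2 (ENSG00000108094, chr10:35008504-35127006 on GRCh38, minus strand), the cullin scaffold whose canonical transcript has 21 exons, had the largest fall of the 10 genes. Levels were 9.35 and 10.4 FPKM in control and 2.05 and 1.61 FPKM after GNE-987, or 3324 and 3561 reads against 264 and 219. The drop was far wider than the gap between replicates. The log2 fold change was -2.38 ± 0.151 (SE; limma, adjusted P value 0.000579), and it was called in 16 of 16 alternative settings. CREM, which shares 191 exonic bases with CUL2 on the opposite strand, was at 3.64 and 3.66 FPKM in control and 7.62 and 8.59 FPKM after GNE-987 in the deposited values. Whether the counting used strand is not given in the sources used here.

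ELOB (ENSG00000103363, chr16:2771414-2777289, minus strand) is the most abundant of the 10 RNAs in all 4 libraries. Control values were 107 and 87.8 FPKM, and values after GNE-987 were 328 and 313 FPKM. The control replicates differed more from each other than the treated ones, and the groups stayed far apart. The log2 fold change was 1.73 ± 0.111 (SE; limma, adjusted P value 0.000598), but 0.94, without passing the fold threshold, with scaling to total reads, 0.60 with quantile normalization and -0.13 with scaling to GAPDH. ELOB shares 407 exonic bases with SRRM2 on the opposite strand, which was at 79.0 and 88.6 against 132 and 129 FPKM. The pseudogene ELOBP1 had no reads in control and 17.8 and 18.7 FPKM with GNE-987 (53 and 59 reads), and reads can be shared between such copies.

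ELOC (ENSG00000154582), which contacts VHL, ELOB and the cullin, measured 11.4 and 9.72 FPKM in control, against 21.7 and 21.2 FPKM after GNE-987. It stood just inside the fold threshold, with a log2 fold change of 1.02 ± 0.0938 (SE; limma, adjusted P value 0.00138). The call did not hold with scaling to total reads (0.25), with quantile normalization (0.94), with a pseudocount of 1 (0.96), in the test beyond 2-fold, or without control replicate 2 (0.91), and with scaling to GAPDH the direction turned (-0.82). Of 16 ELOC pseudogenes in the table outside the Y chromosome, 4 were above 0.5 FPKM in any library.

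RBX1 (ENSG00000100387, chr22:40951347-40973309, plus strand), the RING subunit, had 12.4 and 13.1 FPKM in control, against 23.0 and 20.4 FPKM after GNE-987. The groups did not overlap, but the fold change was under 2, with a log2 fold change of 0.76 (95% interval 0.53 to 0.99), and it was -0.02 with scaling to total reads and -1.08 with scaling to GAPDH. The pseudogene RBX1P2 had no reads in control and 7.67 and 2.54 FPKM with GNE-987 (20 and 7 reads).

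NEDD8 (ENSG00000129559, chr14:24216857-24232367, minus strand), the modifier itself, stood at 7.23 and 5.06 FPKM in control, against 14.6 and 13.1 FPKM after GNE-987. Its control replicates lay the widest apart of the 10 genes on the log scale, which gave the largest standard error (log2 fold change 1.18, standard error 0.200, adjusted P value 0.00790 from limma). The call was lost without control replicate 2 (0.92), without either GNE-987 library (1.10 without replicate 1, 1.26 without replicate 2, each with a P value over the threshold), in the test beyond 2-fold and with scaling to total reads (0.40), and the direction turned with scaling to GAPDH (-0.66). NEDD8-MDP1, an annotated readthrough gene that shares 488 exonic bases with NEDD8, was listed at 0 in all 4 libraries.

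NAE1 (ENSG00000159593, chr16:66802875-66873256, minus strand), the regulatory subunit of the NEDD8-activating enzyme, measured 19.9 and 21.0 FPKM in control, against 5.02 and 3.96 FPKM after GNE-987. UBA3 (ENSG00000144744, chr3:69054730-69080408, minus strand), the catalytic subunit, had 5.81 and 5.54 FPKM in control, against 1.37 and 1.52 FPKM after GNE-987, resting on only 47 and 55 reads in the treated libraries. Both subunits were lower in each treated library than in each control library. The log2 fold changes were -2.17 ± 0.136 (SE) for NAE1 and -1.90 ± 0.105 (SE) for UBA3, with adjusted P values of 0.000568 and 0.000433 from limma. Both genes were called lower in 16 of 16 alternative settings.

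UBE2M (ENSG00000130725, chr19:58555712-58558954, minus strand), which passes NEDD8 to CUL2 and other RBX1-bound cullins, measured 40.7 and 39.4 FPKM in control, against 24.5 and 27.1 FPKM after GNE-987. Its log2 fold change of -0.63 (95% interval -0.83 to -0.44) did not pass the fold threshold in the deposited values, and did so with scaling to total reads (-1.41), to GAPDH (-2.48) and with quantile normalization (-1.08). CDC34 (ENSG00000099804, chr19:531760-542092, plus strand) changed least of the 10 in the deposited values, from 64.9 and 62.9 FPKM to 56.4 and 53.6 FPKM. Its log2 fold change was -0.22 (95% interval -0.35 to -0.08). It was -0.92 with quantile normalization and -0.996 with scaling to total reads, and only scaling to GAPDH (-2.07) took it past the threshold. Under each of these another member changed less: ELOB with quantile normalization (0.60) and with scaling to GAPDH (-0.13), and RBX1 with scaling to total reads (-0.016). The conjugating enzymes were therefore the members whose RNA levels stayed nearest to control in the deposited values.

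**Figure D2:**
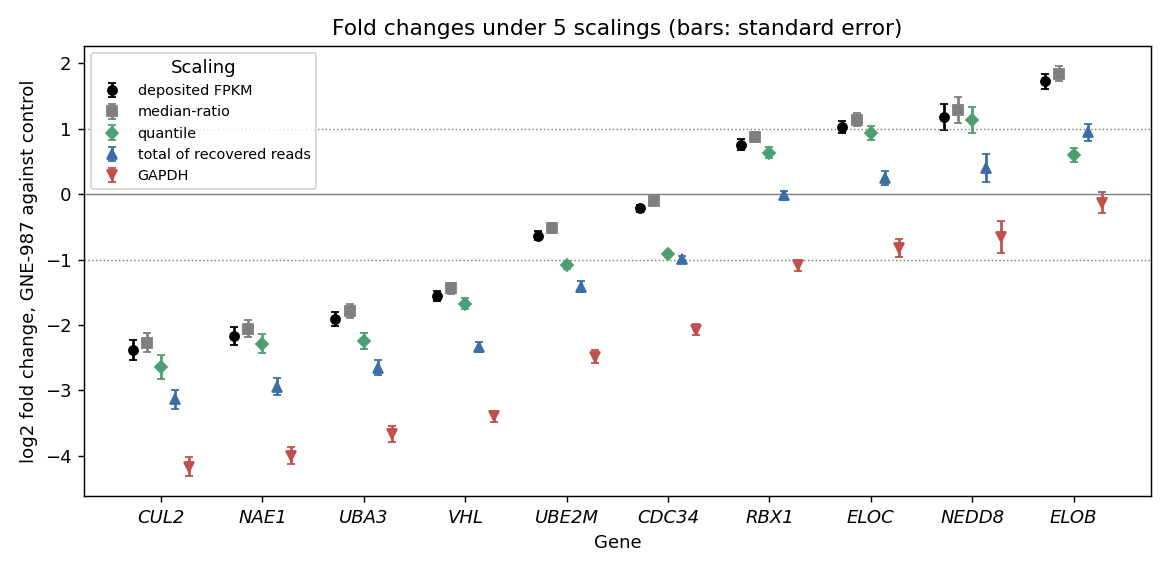
Log2 fold change (GNE-987 over control) of the 10 genes under 5 scalings of the same libraries, with bars of 1 standard error (n = 2 libraries per group) and dotted lines at the 2-fold thresholds. CUL2, NAE1, UBA3 and VHL lie below -1 under all 5, whereas ELOC, NEDD8 and ELOB lie above 0 with the deposited, median-ratio, quantile and total-read scalings and below 0 with scaling to GAPDH.

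The order of the levels changed with treatment. In control libraries the mean FPKM ran from ELOB (97.3) through CDC34, UBE2M, VHL, NAE1, RBX1, ELOC, CUL2 and NEDD8 down to UBA3 (5.67), and only the neighbours ELOC and CUL2, and NEDD8 and UBA3, overlapped between libraries. With GNE-987 the order was ELOB (321), CDC34, UBE2M, RBX1, ELOC, NEDD8, VHL, NAE1, CUL2 and UBA3 (1.44), with an overlap only between RBX1 and ELOC. VHL thus went from the 4th to the 7th place and NAE1 from the 5th to the 8th, while NEDD8 went from the 9th to the 6th. FPKM is per length of the gene model, and these models can be longer than the transcript. The length at which CUL2 values give whole reads was 15441 bases, against 4183 in the canonical transcript, so an order between genes depends on the models used.

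Ratios between genes of the same library do not depend on scaling by a single factor per library, and were used to compare the parts of the complex. Quantile normalization uses no such factor and can change them, so the ratios below are those of the deposited values. The ratio of ELOB to CUL2 was 11.4 and 8.42 in control and 160 and 195 with GNE-987, 18.0-fold higher. RBX1 to CUL2 went from 1.33 and 1.26 to 11.2 and 12.7 (9.26-fold), and ELOC to VHL from 0.508 and 0.418 to 2.66 and 2.94 (6.06-fold). VHL and CUL2, which both fell, also moved apart, with a ratio of 2.39 and 2.23 in control against 3.98 and 4.50 with GNE-987 (1.83-fold). The RNAs of the elongin pair differed less, with ELOB to ELOC at 9.41 and 9.03 against 15.1 and 14.7 (1.62-fold). With quantile normalization ELOB (log2 fold change 0.60) rose less than ELOC (0.94), so this increase did not hold. ELOB and CUL2 (-2.64) still moved apart under it, but less far. The NEDD8 E1 subunits were the exception among 15 ratios computed. NAE1 to UBA3 was 3.42 and 3.80 in control and 3.67 and 2.61 with GNE-987, so that the groups overlapped, whereas the groups were apart in the other 14. NEDD8 to UBA3 went from 1.25 and 0.913 to 10.7 and 8.60 (8.98-fold). The ratios are given as a description, without a test; with 2 libraries against 2, an exact two-sided permutation test cannot go below a P value of 0.333.

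**Figure D3:**
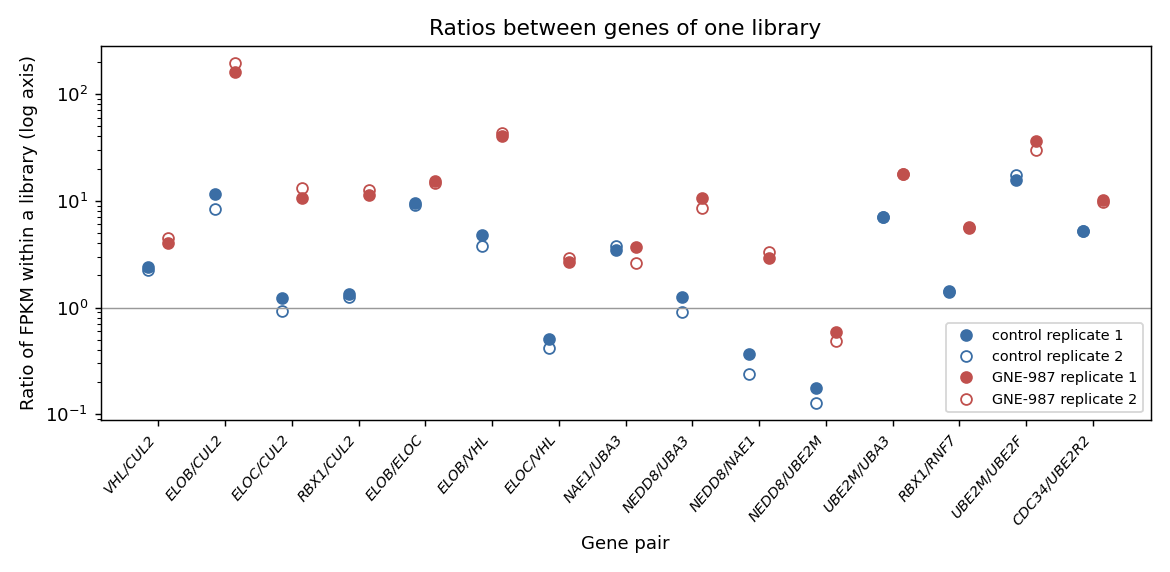
Ratios of FPKM between 2 genes of the same library on a log axis, for 15 gene pairs (blue, control; red, GNE-987; filled, replicate 1; open, replicate 2; the grey line marks equal levels). The ratio of NAE1 to UBA3 overlaps between the groups, and the ratio of ELOB to CUL2 shows the widest gap.

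Close relatives of the members did not follow them in every case. RNF7, the RING protein that pairs with CUL5 as RBX1 does with CUL2, fell (8.96 and 9.18 against 4.18 and 3.56 FPKM, log2 fold change -1.21), and the ratio of RBX1 to RNF7 went from 1.38 and 1.43 to 5.50 and 5.72. UBE2F, the conjugating enzyme for NEDD8 on CUL5, fell from 2.62 and 2.26 to 0.677 and 0.909 FPKM (not called with a pseudocount of 1), and UBE2R2, the relative of CDC34, fell from 12.5 and 12.003 to 5.52 and 5.53 FPKM. The ratio of UBE2M to UBE2F was 2.00-fold higher with GNE-987 and that of CDC34 to UBE2R2 1.91-fold higher.

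Among the other cullins, CUL1, CUL4A, CUL4B and CUL5 fell. Of 10 genes of other cullins and adaptors, 5 were lower and 2 higher (median log2 fold change -0.78), beside 31.7% lower and 24.0% higher for protein-coding genes. That background holds for the deposited values of each list below. With scaling to total reads the counts of this list were 6 lower and 0 higher, and with scaling to GAPDH 8 and 0. Beside these and the rescaled counts below, all 16668 tested genes also shifted. Of them, 6656 were lower and 4177 higher with scaling to total reads, and 9738 and 3031 with scaling to GAPDH. CUL4A (-1.80), CUL1 (-1.59), CUL5 (-1.19) and CUL4B (-1.01) were lower. CUL4A and CUL1 were called in 16 of 16 alternative settings, CUL5 in 14 and CUL4B in 11. CUL3, the scaffold for BTB-domain receptors, was at 5.12 and 5.41 FPKM in control and 7.58 and 6.24 FPKM with GNE-987. It did not pass the fold threshold except with scaling to GAPDH (-1.44). CUL2 had a lower fold change than each of these. SKP1, the adaptor of CUL1, and CUL7 were higher (1.45 and 1.35), but neither passed with scaling to total reads, and both were below 0 with scaling to GAPDH.

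Of 13 genes that remove NEDD8 or exchange cullins, 5 were lower and 0 higher in the limma fit (median -0.42), a share of lower genes near the background. The counts were 7 and 0 with scaling to total reads and 13 and 0 with scaling to GAPDH. CAND1, which exchanges the receptors of cullins, fell from 11.1 and 11.7 to 2.65 and 2.85 FPKM, and COPS2, a subunit of the COP9 signalosome that strips NEDD8 from cullins, from 8.28 and 8.29 to 2.37 and 1.77 FPKM. COPS5, its catalytic subunit, was also lower (-1.23). Among 7 tested of 8 other neddylation genes, 3 were lower and 0 higher (median -0.79; 5 and 0 with scaling to total reads, 6 and 0 with scaling to GAPDH), with the largest falls in DCUN1D5 (-2.04) and DCUN1D4 (-1.60), cofactors of NEDD8 transfer. CAND1, COPS2, DCUN1D5 and DCUN1D4 were called lower in 16 of 16 alternative settings.

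Most other receptors that dock on CUL2 did not pass the thresholds. Of 10 tested of 11, 1 was lower and 1 higher (median -0.07), against 4 and 1 with scaling to total reads and 8 and 0 with scaling to GAPDH. PRAME fell from 251 and 257 to 112.5 and 115.6 FPKM, and ZER1, a receptor for N-terminal glycine, rose from 2.08 and 2.21 to 8.81 and 9.96 FPKM, though with scaling to GAPDH its log2 fold change was 0.27 and did not pass. Among 14 genes of ubiquitin and its enzymes, 4 were lower and 4 higher (median -0.17), against 7 and 2 with scaling to total reads and 10 and 0 with scaling to GAPDH. RPS27A, which encodes ubiquitin fused to a ribosomal protein, was higher (2.12), but did not pass with quantile normalization or with scaling to GAPDH. UBA6 (-1.71) and UBE2R2 (-1.13) had the largest falls of that list.

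On the side of VHL's natural substrates, the prolyl hydroxylases fell and one of the hypoxia-inducible factor genes rose. Of 7 oxygen sensing genes, 4 were lower and 1 higher (median -1.07), against 5 and 1 with scaling to total reads and 5 and 0 with scaling to GAPDH. EGLN2 fell from 2.58 and 2.18 to 0.637 and 0.465 FPKM and EGLN1 from 6.99 and 6.91 to 2.42 and 2.15 FPKM. The third, EGLN3, had a log2 fold change of -1.07 but was called lower in only 10 of 16 alternative settings. These enzymes mark the factors for binding by VHL. EPAS1, which encodes HIF-2 alpha, rose from 2.72 and 2.46 to 10.9 and 11.1 FPKM, with a log2 fold change of 2.04 that was 0.23 and not called with scaling to GAPDH. HIF1A was at 4.58 and 5.31 against 8.61 and 9.15 FPKM and did not pass the fold threshold. The direction of the target genes of these factors depended on the scaling. Among 13 tested of 15, 1 was lower and 3 higher (median 0.31, and -0.06 with quantile normalization). With scaling to total reads 6 were lower and 1 higher (median -0.45), and with scaling to GAPDH 8 and 0 (median -1.48). VEGFA fell from 6.96 and 6.13 to 2.24 and 2.74 FPKM, while P4HA1 (2.05) and NDRG1 (1.46) were the largest increases in the deposited values. With scaling to GAPDH, P4HA1 was not called (0.21) and NDRG1 turned (-0.33), and NDRG1 was also not called with scaling to total reads (0.70). CA9, a target used as a sign of lost VHL activity, was at 2 reads in control replicate 1 and listed at 0 in the other 3 libraries. It did not pass the filter on low values and was not tested. At such levels in control too, it gives no reading of VHL activity.

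**Figure D4:**
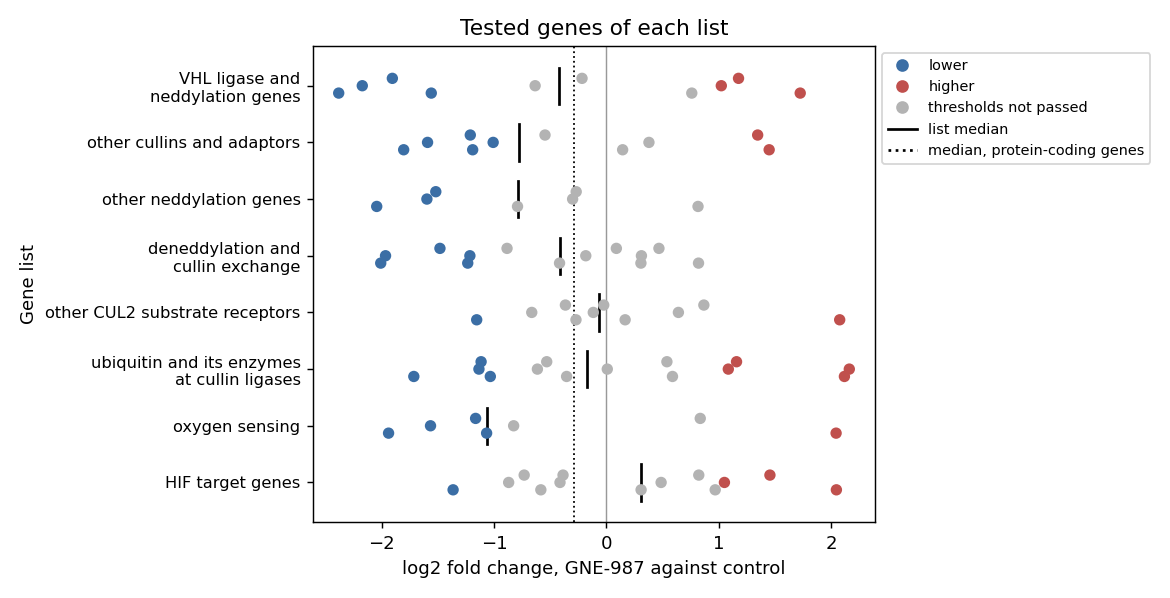
Log2 fold changes of the tested genes of 8 lists (points; blue, called lower; red, called higher; grey, thresholds not passed), with the median of each list as a black line and the median of all tested protein-coding genes, -0.29, as a dotted line. The VHL ligase and neddylation genes spread to both sides, from -2.38 to 1.73, and the lists of deneddylation and other neddylation genes hold no gene called higher.

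Members with a log2 fold change above 0 and those below 0 in the deposited values also differed in size, a property that the choice of genes did not use and that was looked at after the values were seen. The coding length of the canonical transcript was 243 nucleotides for NEDD8, 324 for RBX1, 336 for ELOC and 354 for ELOB, and these were the 4 members above 0. It was 549 for UBE2M, 639 for VHL, 708 for CDC34, 1389 for UBA3, 1602 for NAE1 and 2235 for CUL2, and these 6 were below 0. The same order was present, weakly, over all tested protein-coding genes. Among 1089 genes under 500 nucleotides the median log2 fold change was 0.81, with 16.3% lower and 45.3% higher, and among 3135 genes of 2000 nucleotides or more it was -0.53, with 35.8% lower and 18.9% higher. Without genes named as ribosomal proteins or respiratory chain subunits the median of the shortest class was 0.63. Spearman's rho between coding length and log2 fold change was -0.142 over 10996 genes, which share the same 4 libraries. Of the 4 short members, RBX1 (0.76) lay just below the median of its class and ELOC (1.02), NEDD8 (1.18) and ELOB (1.73) above it. The other 6 lay below the medians of theirs. The median was -0.18 for the class of VHL, UBE2M (-0.63) and CDC34 (-0.22, only just below), -0.39 for that of UBA3 and NAE1, and -0.53 for that of CUL2. The part of length in the result was not tested.

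**Figure D5:**
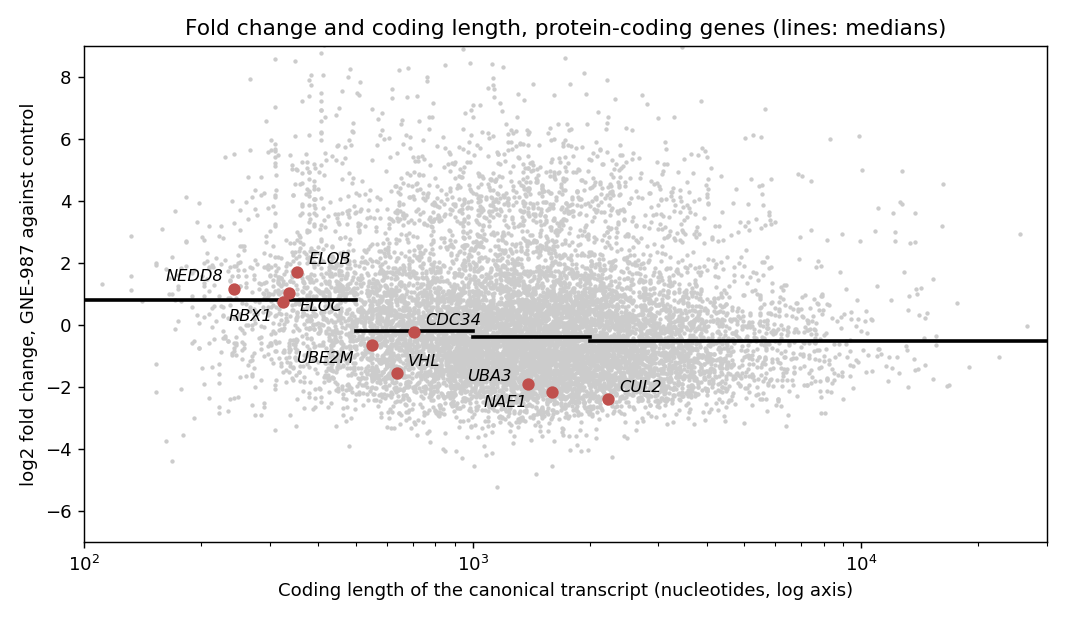
Log2 fold change against the coding length of the canonical transcript (nucleotides, log axis) for tested protein-coding genes (grey points; 13 lie outside the axes), with black lines at the median of each of 4 length classes and the 10 members in red. Of the 4 members under 500 nucleotides, RBX1 lies just below the median of that class, 0.81, and the other 3 above it. CUL2, NAE1, UBA3, VHL, UBE2M and, only just, CDC34 lie below the medians of theirs.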

How the data were processed

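RNA-seq values of 4 libraries labelled NB4 were used. Per the labels, the submitters' processing notes name HISAT2 2.0.5 and hg38; the authors filtered and mapped the reads and deposited FPKM values, which are fragments per kilobase of gene model scaled per library. The counter, the annotation and the scaling factor are not given in the sources used here. Groups came from the treatment label, and dose and time from a figure legend.

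Gene names, positions and lengths came from GENCODE release 44 on GRCh38. Reads were recovered from the FPKM steps (tolerance 0.01 read), at the GENCODE exon length for 53.0% of genes above 0 and at another whole length for all others but 1, which is a weaker test; of the members only RBX1 came out whole at its GENCODE length. Genes whose mean over the 4 libraries reached 0.5 FPKM were fitted as log2(FPKM + 0.1), without a block, by limma 3.58.1 (R 4.3.3; empirical Bayes with trend). Thresholds were those of the study's methods. The steps were tested on simulated data. Members and gene lists were chosen with earlier results of these data known. The named genes are the 10 members, the cullins CUL1 to CUL5, and up to 2 falls and 2 rises with the largest change from each list, plus overlapping genes, pseudogenes and the 3 genes nearest to VHL. One gene that the rule names is not reported here. HIF1A, EGLN3, COPS5, CA9, MPO, the relatives RNF7 and UBE2F, and the coding length were added after values were seen. No sample column was left unused.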

Additional observations from a re-analysis of the deposited data

How the results depend on the processing

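The falls of VHL, CUL2, NAE1 and UBA3 held in each of the 16 alternatives, with log2 fold changes from -4.16 to -1.44. The rises did not. With scaling to GAPDH, 9738 genes were lower and 3031 higher, 7 members were lower and 0 higher, the median of the members was -2.27, and ELOB (-0.13), ELOC (-0.82), RBX1 (-1.08) and NEDD8 (-0.66) turned. With scaling to total reads, 6656 genes were lower, 0 members were higher, the median was -1.20 and RBX1 turned (-0.016). These scalings shift every gene by construction. With quantile normalization 1 member was higher (NEDD8) and the median was -0.999, and with median-ratio scaling the median was -0.31. Without a filter 8757 genes were higher, among more genes tested. In a limma test against a fold change of 2, 1 member was higher (ELOB). With each library left out in turn, 4 members were lower each time and 1 to 3 higher (the 1, ELOB, without control replicate 2), 3714 to 4101 genes were lower and 4978 to 5374 higher, and the median ran from -0.45 to -0.40; the lone library of a group was then assumed to vary like the others. With the replicate number as a block, 4 members were lower and 3 higher, and 4186 and 5667 genes. Same-numbered libraries did not deviate together (correlation 0.00537). With 2 libraries per group, this cannot show whether they shared a culture or a preparation, and the labels give them only a common number. Depth limits UBA3 most among the falls, with 47 and 55 reads in the GNE-987-treated libraries.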

Other observations

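Genes whose levels lay nearest to those of VHL over the 4 libraries were UNG, a uracil DNA glycosylase (Euclidean distance 0.121 on the log2(FPKM + 0.1) scale), PNO1, an assembly factor of the small ribosomal subunit (0.145), and CDK2, a cell cycle kinase (0.168), among 10995 other tested protein-coding genes. UNG was at 23.8 and 23.97 FPKM in control and at 7.78 and 7.19 FPKM with GNE-987, PNO1 at 21.0 and 22.1 against 7.69 and 7.29 FPKM, and CDK2 at 21.5 and 21.4 against 7.86 and 7.71 FPKM. The likeness rests on 2 groups of 2 libraries and covers level and change together.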
